A study of Homo sapiens with 6 samples.

Results

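ARL2BP, the binding partner of the small GTPases ARL2 and ARL3, was described together with 8 genes that act with it, namely ARL2, ARL3, ELMOD2, RP2, UNC119, PDE6D, TBCD and TBCE. ARL2BP was picked by its high fold change in the comparison made here, so its values are given as a description with no test. The other 8 genes were listed by function, as GTPases, regulators, effectors and tubulin cofactors. All 9 are among the 28278 symbols of the count tables, and all 9 passed the filter on low counts that left 14002 genes for testing. RNA was sequenced from HCT116, an established human colon carcinoma line, as total RNA depleted of ribosomal RNA, after infection with lentivirus carrying an shRNA against TRIM21 (shTRIM21, genotype labelled TRIM21 knockdown) or a scrambled shRNA (shControl, genotype labelled WT), with 3 libraries each. Both groups were put under puromycin at 5 µg/ml from 36 h after infection for 2 to 3 weeks and are labelled day 21. The cells are selected populations, and the labels call the replicates biological without saying whether they came from separate cultures. The p-values measure the spread between these libraries, which may be technical if they did not.

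ARL2 and ARL3 are close relatives of the ARF GTPases and switch between a GTP-bound and a GDP-bound state. ARL2BP, also known as BART, binds ARL2 in its GTP-bound state, ELMOD2 speeds GTP hydrolysis by ARL2, and RP2 does so for ARL3. UNC119 carries myristoylated proteins and PDE6D carries prenylated proteins, and GTP-bound ARL3 makes each carrier let go of its cargo at the primary cilium. ARL2 also works with TBCD and TBCE, cofactors that bring α- and β-tubulin together into the dimer from which microtubules are built. In people, inherited defects of ARL2BP and of RP2 are known for retinal degeneration.

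The sequence around GTGTCAC in the 3′ untranslated region (UTR) of ARL2BP and around AGTGGAA in that of ELMOD2 is shown because earlier results of these data ranked these 7-base sequences highest for genes that were higher and lower in shTRIM21. They were picked from the same fold changes and support nothing here. Capitals mark the 7 bases, and the letters come from GENCODE release 29 transcripts.
ARL2BP, position 608 of the 3′ UTR, chr16:57252864-57252892 (GRCh38, plus strand): ttgcagtccttGTGTCACtgtcttctggt
ARL2BP, position 1299 of the 3′ UTR, chr16:57253555-57253583 (GRCh38, plus strand): tctgtactgatGTGTCACttattaaatac
ELMOD2, position 3072 of the 3′ UTR, chr4:140553436-140553464 (GRCh38, plus strand): taatgaaggttAGTGGAAttgttaaaaat
The longest annotated 3′ UTR of ARL2BP, 1368 bases, held GTGTCAC at 2 places and AGTGGAA at 0. Among the 8 partner genes 0 held GTGTCAC in that window, while ELMOD2 and TBCE held AGTGGAA once each and TBCD held it at 2 places. ARL2, ARL3, RP2, UNC119 and PDE6D held neither sequence. Over 18630 genes with an annotated 3′ UTR, whose median length was 1117 bases, 8.77% held GTGTCAC and 14.6% held AGTGGAA. The 3′ UTRs of ELMOD2, TBCE and TBCD were longer than that median, at 3395, 3681 and 3459 bases. Those of ARL3 and RP2 were as well, at 3163 and 2589 bases. The shares over all genes are not matched for length.

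Library totals ran from 22656160 to 27123657 counts, and the biological coefficient of variation was 10.7%. TRIM21, the ubiquitin ligase targeted by the shRNA, had 225, 182 and 173 counts in shTRIM21 against 288, 286 and 443 counts in shControl, and its groups did not overlap. It fell to a log2 fold change of -0.73 (SE 0.17, adjusted p = 0.0124, edgeR's quasi-likelihood test, Benjamini-Hochberg adjusted). The call was lost when shTRIM21 replicate 3 was left out (adjusted p = 0.0734) and when replicate 3 of both groups was (0.114). Along the second principal component, with 23.4% of the variance, replicate 3 had the lowest score of each group, at -14.7 in shTRIM21 and -31.8 in shControl. Of 6 markers of colon epithelium, 5 averaged at least 5 CPM (counts scaled to a common library size), and CDH1, the epithelial cadherin, had 3.41 to 3.86 CPM in shTRIM21 and 3.99 to 5.11 CPM in shControl. The summed level of the 6 was 170 to 173 CPM in shTRIM21 and 182 to 195 CPM in shControl, so that these ranges did not overlap. KRT18 made up the largest part, averaging 70.4 CPM in shTRIM21 and 78.7 CPM in shControl. The marker EPCAM went the other way, with a log2 fold change of 0.13, while the others were negative. No single marker passed edgeR's quasi-likelihood test, where the lowest adjusted p was 0.181, for KRT18. The part of the lower sum in the results below was not tested. The summed fibroblast, leukocyte and endothelial markers stayed at or under 0.359 CPM in every library, with COL1A2, DCN, LUM, LYZ and CDH5 listed at 0.

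ARL2BP had about double the abundance in the shTRIM21 cells. Its raw counts were 3567, 2818 and 3587 in shTRIM21 replicates 1 to 3, against 1619, 1529 and 1696 in shControl. Scaled to library size by TMM, this came to 140.0, 127 and 139 CPM in shTRIM21 against 66.2, 62.5 and 60.4 CPM in shControl. Every shTRIM21 library lay well above every shControl library, and the libraries within a group lay close together. The mean was 135 ± 7.34 CPM in shTRIM21 and 63.0 ± 2.96 CPM in shControl (SD, n = 3 each), a fitted fold of 2.14 and a log2 fold change of 1.10 (SE 0.07). ARL2BP stood 166th from the top of the 14002 tested genes by log2 fold change. Leaving out any library, or replicate 3 of both groups, kept the log2 fold change between 1.06 and 1.14. In RNA from whole cultures, a change in every cell and a change in the share of cells with the transcript cannot be told apart.

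**Figure D1:**
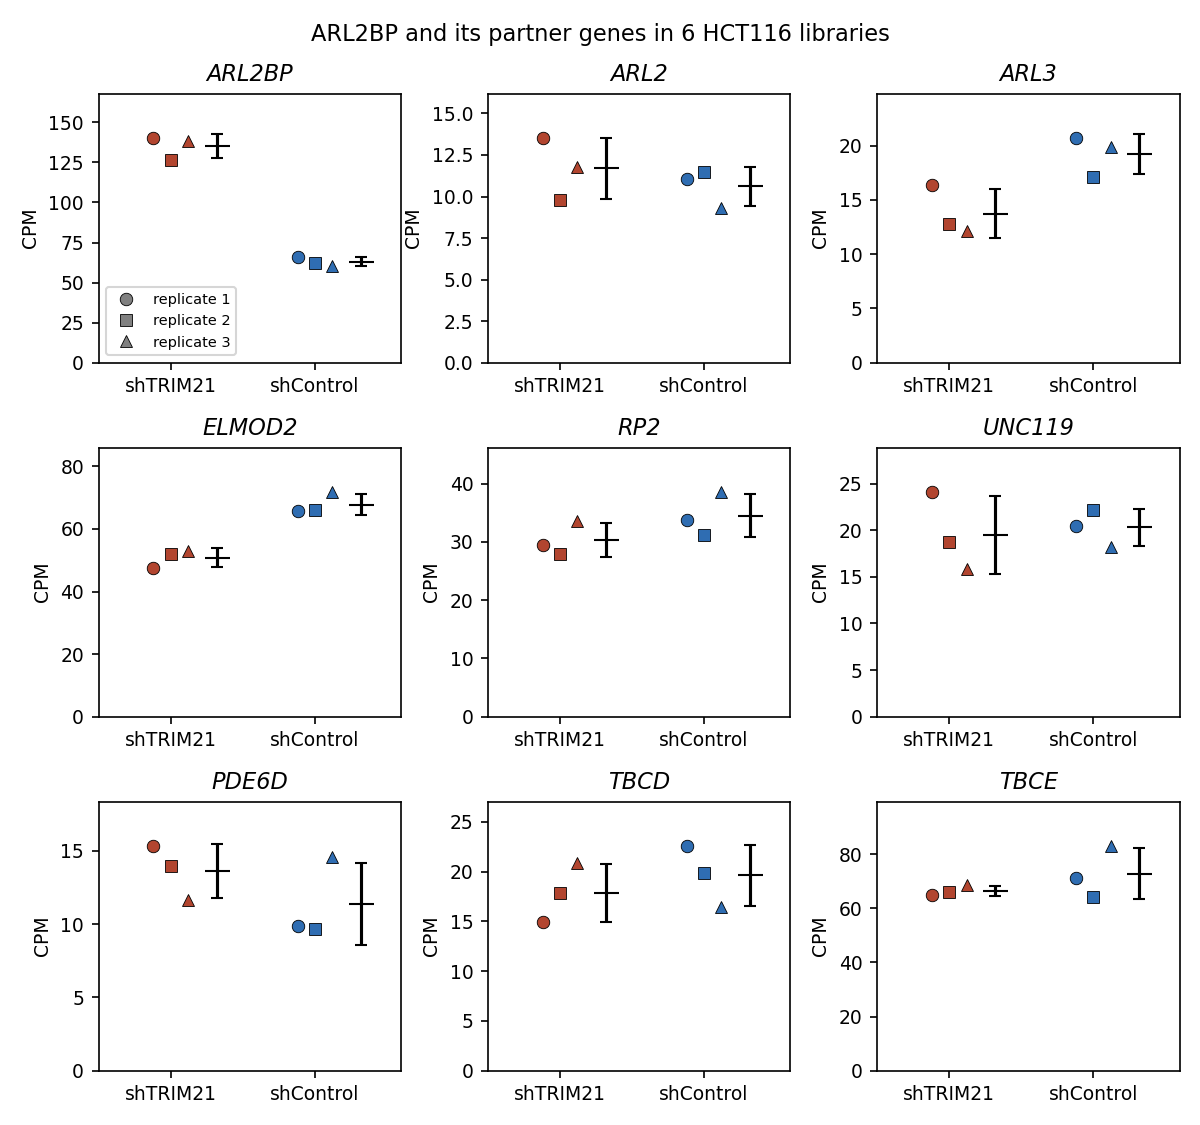
Level of each gene in CPM (vertical axes, from 0) in the 3 shTRIM21 and 3 shControl libraries, with a symbol per replicate number and the mean ± SD in black beside each group. ARL2BP lay at 127 to 140.0 CPM in shTRIM21 against 60.4 to 66.2 CPM in shControl, while ARL3 and ELMOD2 lay lower in every shTRIM21 library than in any shControl library.

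ARL2BP lies on the plus strand of chromosome 16 at 57245098 to 57253635 (GRCh38, ENSG00000102931). An annotated transcript of PLLP, a myelin and epithelial membrane protein on the opposite strand, covers 1733 bases of its exons. PLLP had 2, 0 and 0 counts in shTRIM21 and 0, 0 and 22 counts in shControl, few beside the ARL2BP counts of the same libraries. GENCODE lists 9 pseudogenes named after ARL2BP, and 0 of them are among the symbols counted. How reads that match several places were counted is not given in the sources used here, so reads from or to these copies could not be told apart from those of ARL2BP.

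The tested neighbours of ARL2BP had overlapping groups. RSPRY1, which ends 4623 bases upstream on the same strand, had 92.0, 95.5 and 103 CPM in shTRIM21 against 91.2, 94.1 and 110.2 CPM in shControl. Its log2 fold change of -0.02 had a 95% interval from -0.19 to 0.14. CPNE2, a calcium-dependent membrane-binding protein encoded 96731 bases upstream, averaged 20.5 ± 0.664 CPM in shTRIM21 and 21.1 ± 0.613 CPM in shControl (SD, n = 3 each), with a log2 fold change of -0.04 and a 95% interval from -0.27 to 0.20. The nearest annotated genes of the tables on the other side, the chemokine genes CCL22 and CX3CL1, had 0 counts in every library, except for 2 counts of CX3CL1 in shTRIM21 replicate 3.

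Among the 8 partner genes, ELMOD2 and ARL3 fell, 0 rose and 6 did not pass, where 4.66% of all tested genes fell, 4.43% rose and 9.08% passed in either direction. For ELMOD2 and ARL3 all shTRIM21 libraries lay below all of shControl, which held for 13.9% of all tested genes. The groups of the other 6 overlapped. Across all tested genes the shTRIM21 libraries lay wholly above for 14.1% and apart in either direction for 28.1%. The median log2 fold change of the 8 partner genes was -0.13, against 0.01 over all tested genes.

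ELMOD2, the GTPase-activating protein of ARL2, had raw counts of 1209, 1158 and 1372 in shTRIM21, against 1604, 1616 and 2014 in shControl. Its levels were 47.4, 52.0 and 53.0 CPM in shTRIM21 and 65.6, 66.0 and 71.7 CPM in shControl. The gap between the groups was wider than the range within either of them. Its log2 fold change was -0.42 (SE 0.08, 95% interval from -0.58 to -0.25), which left 0.75 of the control level, with an adjusted p = 0.00307 in edgeR's quasi-likelihood test, Benjamini-Hochberg adjusted. The call held in all 17 alternatives, with log2 fold changes from -0.45 to -0.33. The gene lies on the plus strand of chromosome 4 at 140524158 to 140553770 (GRCh38), with no other annotated gene over it.

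ARL3, the GTPase of ciliary cargo release, had 416, 284 and 313 counts in shTRIM21 and 505, 419 and 558 counts in shControl. In CPM this was 16.3, 12.8 and 12.1 in shTRIM21 against 20.7, 17.1 and 19.9 in shControl. The highest shTRIM21 library and the lowest shControl library lay close to each other. The log2 fold change was -0.48 (SE 0.14, 95% interval from -0.79 to -0.18), with an adjusted p = 0.0404 in edgeR's quasi-likelihood test, Benjamini-Hochberg adjusted. That call was lost with upper-quartile scaling (adjusted p = 0.0586), without shTRIM21 replicate 2 (0.153) or 3 (0.169), without shControl replicate 1 (0.146) or 3 (0.0618), and without replicate 3 of both groups (0.154), while the log2 fold change stayed between -0.63 and -0.36. No other annotated gene lies over ARL3, which is read from the minus strand of chromosome 10 between 102673731 and 102714407 (GRCh38).

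The promoters of ARL3 and ELMOD2, from 250 bases before to 50 after the start in RefSeq, are shown because these were the partner genes that fell. Capitals mark matches, on either strand, to the CCAAT box CCAAT, the GC box GGGCGG, the E-box CACGTG, the ETS motif CCGGAA, the cyclic AMP response element TGACGTCA and the TATA box TATAAA, where GC boxes may overlap each other.
ARL3 promoter, chr10:102714348-102714647 (GRCh38.p14, minus strand): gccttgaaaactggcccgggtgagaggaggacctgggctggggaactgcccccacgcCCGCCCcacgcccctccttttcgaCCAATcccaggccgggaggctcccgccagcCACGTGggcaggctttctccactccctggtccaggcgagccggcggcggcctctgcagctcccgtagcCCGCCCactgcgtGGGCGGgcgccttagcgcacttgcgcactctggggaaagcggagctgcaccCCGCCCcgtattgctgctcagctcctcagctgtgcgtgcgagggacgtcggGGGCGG
ELMOD2 promoter, chr4:140523918-140524217 (GRCh38.p14, plus strand): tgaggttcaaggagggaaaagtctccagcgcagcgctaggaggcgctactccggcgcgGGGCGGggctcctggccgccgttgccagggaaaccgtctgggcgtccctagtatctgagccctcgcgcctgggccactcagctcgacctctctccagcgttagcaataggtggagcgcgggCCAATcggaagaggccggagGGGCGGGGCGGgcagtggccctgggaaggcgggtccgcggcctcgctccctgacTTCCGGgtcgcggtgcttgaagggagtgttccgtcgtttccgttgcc
The CCAAT box was in the promoters of ARL2, ARL3, ELMOD2, RP2, PDE6D and TBCE, 6 of the 8 partner promoters, and in 35.7% of 27305 promoters of that length. The GC box was in 7 of the 8, all but PDE6D, and in 44.6% of all. CACGTG was in those of ARL2 and ARL3 and in 7.43% of all, and CCGGAA in those of ELMOD2 and TBCE and in 17.6% of all. TGACGTCA and TATAAA were in 0 of the 8, and in 1.98% and 12% of all. ARL3 and ELMOD2 thus shared the CCAAT box and the GC box, as did ARL2, RP2 and TBCE, whose changes did not pass.

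ARL2, the GTPase that gives ARL2BP its name, did not pass the test. Its raw counts were 344, 218 and 305 in shTRIM21 and 270, 281 and 261 in shControl. Its levels were 13.5, 9.79 and 11.8 CPM in shTRIM21 against 11.04, 11.5 and 9.29 CPM in shControl. The highest library was shTRIM21 replicate 1, the lowest was shControl replicate 3, and the others were mixed between them. The log2 fold change was 0.14 (95% interval from -0.20 to 0.49, adjusted p = 0.654 by edgeR's quasi-likelihood test). ARL2 shares 365 exonic bases on chromosome 11 with ARL2-SNX15, an annotated readthrough into SNX15, a sorting nexin. ARL2-SNX15 averaged 14.8 ± 1.84 CPM in shTRIM21 and 14.9 ± 1.24 CPM in shControl (SD, n = 3 each), and with the counts of ARL2 and ARL2-SNX15 summed the log2 fold change was 0.05.

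The count of ARL2BP per count of ARL2, which is not corrected for length and serves only to compare libraries, was 10.4, 12.9 and 11.8 in shTRIM21 against 6, 5.44 and 6.5 in shControl. Per count of ARL3 it was 8.57, 9.92 and 11.5 in shTRIM21 and 3.21, 3.65 and 3.04 in shControl. The count of ELMOD2 per count of ARL2 was 3.51, 5.31 and 4.50 in shTRIM21 against 5.94, 5.75 and 7.72 in shControl. All 3 ratios kept the groups apart, and the first pair of them carries the ARL2BP values that chose it. The ratio of ELMOD2 to ARL2 carries the ELMOD2 values, whose groups were already apart on their own. Single genes lay apart in either direction for 28.1% of all tested genes, and the share over ratios of gene pairs was not computed.

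RP2, the GTPase-activating protein of ARL3, had 29.5, 27.9 and 33.6 CPM in shTRIM21 against 33.8, 31.2 and 38.5 CPM in shControl. In each group replicate 3 was the highest and replicate 2 the lowest library, and the groups overlapped. The log2 fold change was -0.19 (95% interval from -0.41 to 0.04, adjusted p = 0.322 by edgeR's quasi-likelihood test). RP2 lies on chromosome X at 46836940 to 46882358 (GRCh38).

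UNC119, the carrier of myristoylated proteins, had 24.1, 18.7 and 15.8 CPM in shTRIM21 and 20.5, 22.1 and 18.2 CPM in shControl. The shTRIM21 libraries spread over more than the whole control range, with a log2 fold change of -0.06 (95% interval from -0.36 to 0.25, adjusted p = 0.866 by edgeR's quasi-likelihood test). The sign of that value changed without shTRIM21 replicate 3 (0.08), without shControl replicate 2 (0.01) and without replicate 3 of both groups (0.02).

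PDE6D, the carrier of prenylated proteins, had 390, 310 and 302 counts in shTRIM21 and 242, 236 and 409 counts in shControl. This was 15.3, 13.9 and 11.7 CPM in shTRIM21 against 9.90, 9.64 and 14.6 CPM in shControl. Replicates 1 and 2 were higher in shTRIM21, and replicate 3 was higher in shControl. The log2 fold change was 0.26 (95% interval from -0.10 to 0.62, adjusted p = 0.406 by edgeR's quasi-likelihood test). Without replicate 3 of both groups it was 0.59, with an adjusted p = 0.0246, the only alternative of 17 in which PDE6D passed. PDE6D shares 72 exonic bases with COPS7B, a COP9 signalosome subunit on the opposite strand, which averaged 34.97 ± 4.07 CPM in shTRIM21 and 37.0 ± 2.51 CPM in shControl (SD, n = 3 each).

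TBCD, the tubulin cofactor that forms a complex with ARL2, had 14.9, 17.8 and 20.8 CPM in shTRIM21 and 22.5, 19.8 and 16.5 CPM in shControl. The groups overlapped almost wholly, with a log2 fold change of -0.13 (95% interval from -0.44 to 0.17, adjusted p = 0.64 by edgeR's quasi-likelihood test). TBCE, which binds α-tubulin, had 64.8, 66.0 and 68.4 CPM in shTRIM21 against 71.1, 64.3 and 82.9 CPM in shControl. Its shTRIM21 libraries lay within the control range, with a log2 fold change of -0.13 (95% interval from -0.32 to 0.05, adjusted p = 0.396). GENCODE lists TBCE under separate entries on chromosome 1. The entry that starts at 235328570 shares 1422 exonic bases on the same strand with GGPS1, a synthase of the isoprenoid geranylgeranyl diphosphate. The entry that starts at 235367360 lies beyond the end of GGPS1 at 235344532. With the counts of TBCE and GGPS1 summed the log2 fold change was -0.05.

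**Figure D2:**
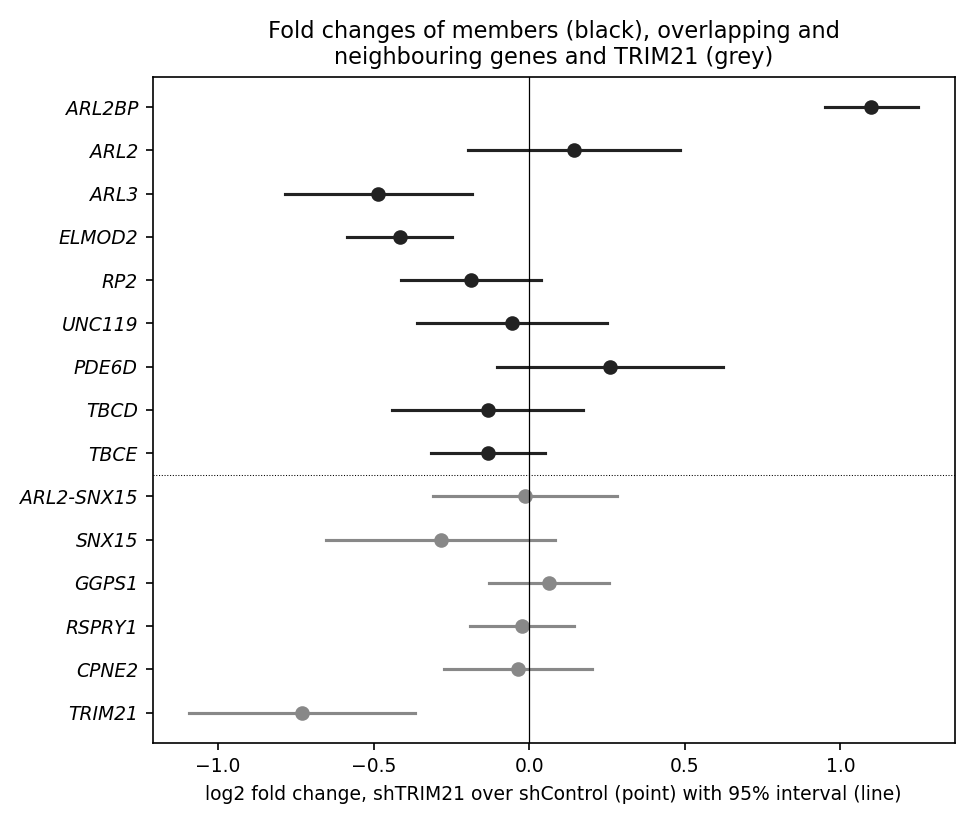
Log2 fold change of shTRIM21 over shControl (horizontal axis) for the 9 genes in black and, in grey, for genes that overlap or neighbour them and TRIM21, with 95% intervals as lines. ARL2BP stood at 1.10, ARL3 at -0.48 and ELMOD2 at -0.42, and the intervals of the other 6 partner genes included 0.

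Set per kilobase of the coding transcript with the longest 3′ UTR, ARL2BP was the most abundant of the 9 genes in each group, at 63.4 ± 3.45 CPM per kb in shTRIM21 and 29.6 ± 1.39 in shControl (SD, n = 3 each). TBCE, ARL2, UNC119, PDE6D and ELMOD2 followed in shTRIM21 at 12.2, 11.9, 11.8, 11.6 and 11.5 CPM per kb, and neighbours in that run differed by less than the larger of their SDs. RP2 at 7.98, ARL3 at 3.57 and TBCD at 2.49 CPM per kb came below them, each lower than the gene before it by more than either SD. In shControl the order was ELMOD2 at 15.4, TBCE at 13.4, UNC119 at 12.3, ARL2 at 10.8, PDE6D at 9.68, RP2 at 9.07, ARL3 at 5.00 and TBCD at 2.74 CPM per kb. TBCE and UNC119, ARL2 and PDE6D, and PDE6D and RP2 did not differ beyond the larger SD there. ELMOD2 thus stood next to ARL2BP in shControl, and level with 4 other partner genes in shTRIM21. Per kilobase of all annotated exons, ARL2 was at 5.61 and UNC119 at 3.80 CPM per kb in shTRIM21, so the order of the middle genes rests on the choice of transcript.

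**Figure D3:**
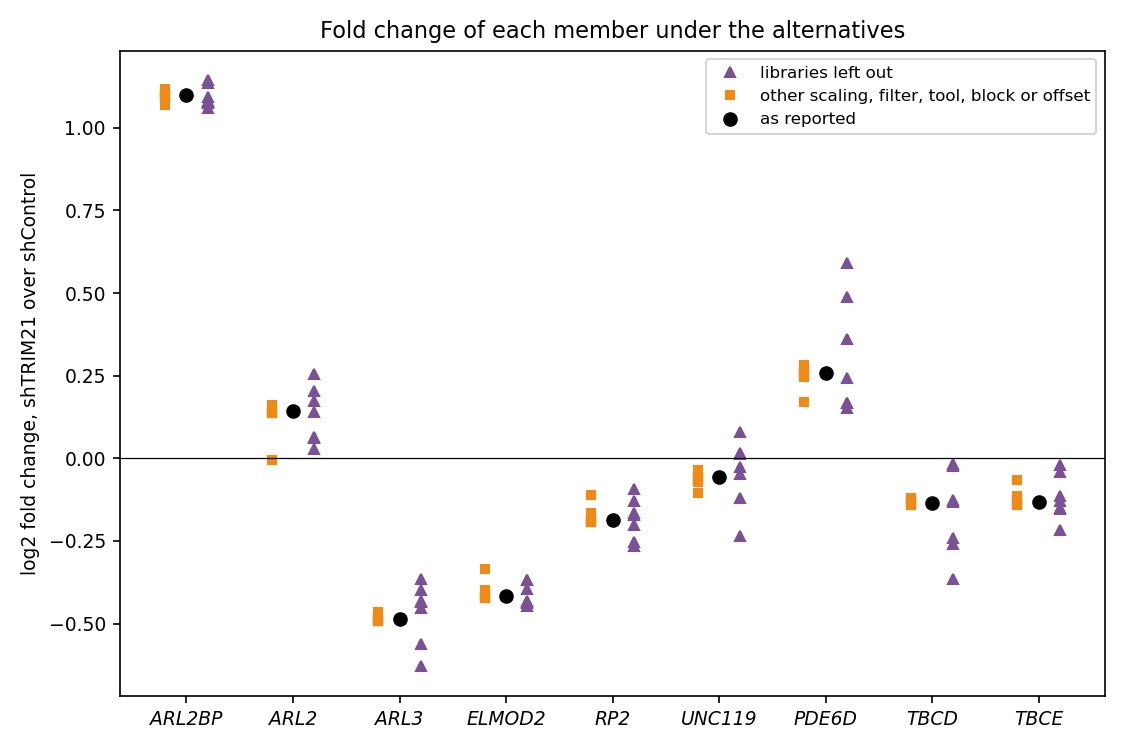
Log2 fold change of shTRIM21 over shControl (vertical axis) for each of the 9 genes as reported (black), with libraries left out (purple triangles) and with other scaling, filters, tools, a replicate block or an offset (orange squares). ARL2BP kept between 1.06 and 1.14 and ELMOD2 between -0.45 and -0.33, while PDE6D ran from 0.15 to 0.59 and UNC119 crossed 0.

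Over the 6 libraries, the genes with at least 5 CPM whose log2 CPM was most like that of ARL2BP were BHLHE40, S100A2, KCTD5, SRXN1 and UBL5, with a Pearson r of 0.993 each. The r of 557 of 10652 such genes, 5.23%, was above 0.9, and it mostly follows the difference between the groups, which chose ARL2BP. With the group means removed, r was 0.394 for BHLHE40, a transcription factor, 0.235 for S100A2, a calcium-binding protein, 0.796 for KCTD5, an adaptor of a ubiquitin ligase, 0.842 for SRXN1, the sulfiredoxin, and 0.562 for UBL5, a ubiquitin-like protein. These values describe 6 libraries that share their scaling, and carry no test.

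The tubulin pathway beyond TBCD and TBCE was listed by function. Of the other tubulin cofactors (TBCA, TBCB, TBCC, TBCCD1 and TBCEL), 0 of 5 passed the test. TBCA, which holds β-tubulin, averaged 106 ± 6.52 CPM in shTRIM21 and 88.8 ± 13.1 CPM in shControl (SD, n = 3 each), and TBCB, which holds α-tubulin, 22.4 ± 2.15 CPM in shTRIM21 and 17.8 ± 1.45 CPM in shControl. TBCA had a log2 fold change of 0.26 (adjusted p = 0.08) and TBCB one of 0.34 (adjusted p = 0.0988) in edgeR's quasi-likelihood test. These 2 of 5 had an unadjusted p under 0.05, as did 22.8% of all tested genes, and DESeq2 and limma-voom also called 0 of the 5. TBCA was called with upper-quartile scaling, with no filter on low counts, with an offset by length and GC content and without replicate 3 of both groups, and both genes were called without shControl replicate 3. The list's median log2 fold change was 0.08.

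Of 21 tubulin genes 17 were tested and 0 passed edgeR's test, 12 of the 17 had a negative log2 fold change, and their median was -0.16. The most abundant α-tubulin, TUBA1B, averaged 1854 ± 126 CPM in shTRIM21 and 2180 ± 86.6 CPM in shControl (SD, n = 3 each), with a log2 fold change of -0.23 (adjusted p = 0.0675 by edgeR's quasi-likelihood test). TUBA1C had -0.22 (adjusted p = 0.0659) and TUBB -0.20 (adjusted p = 0.0712) in the same test. In these 3 genes and in TUBB1, 4 of the 17, all shTRIM21 libraries lay below all of shControl, which held for 13.9% of all tested genes. For 0 of the 17 they lay wholly above, against 14.1% of all tested genes. An unadjusted p under 0.05 was found for 5 of the 17, all lower in shTRIM21, against 22.8% of all tested genes in either direction. DESeq2 called 4 lower and limma-voom 3. Among the other edgeR fits, 5 were called lower with no filter, 3 without the 20 most abundant genes and 4 with a replicate block. The fit without shTRIM21 replicate 1 called 3, that without shControl replicate 3 called 5, and that without replicate 3 of both groups 5. With the offset by length and GC content 7 were called. TUBA1B and TUBA1C were in each of these sets, and the remaining alternatives called 0. The α-tubulin genes are close copies of each other, as are the β-tubulin genes, and reads may have been split between such copies. Among 14 genes of the chaperonin and prefoldin, which fold tubulin before the cofactors take it, PFDN1, a prefoldin subunit, rose by 0.28 on the log2 scale (SE 0.08, adjusted p = 0.0401 by edgeR's test), 0 fell and 13 did not pass. PFDN1 averaged 49.95 ± 1.12 CPM in shTRIM21 and 41.0 ± 1.86 CPM in shControl (SD, n = 3 each), and its call was lost in each of the 5 fits without a replicate 1, a replicate 2 or shTRIM21 replicate 3, with adjusted p from 0.0967 to 0.165, with library totals in place of TMM (0.0799) and with an offset by length and GC content (0.0699). In that list 1 of 14 rose and 0 fell, where 4.43% of all tested genes rose and 4.66% fell. Of its log2 fold changes 10 of 14 were positive, with a median of 0.02. PFDN2, another prefoldin subunit, averaged 52.4 ± 2.06 CPM in shTRIM21 and 43.3 ± 3.11 CPM in shControl (SD, n = 3 each), with a log2 fold change of 0.27 (adjusted p = 0.0523 by edgeR's test), and was called by DESeq2, with upper-quartile scaling, with no filter or a filter of 1 CPM, and without shControl replicate 3 or replicate 3 of both groups. The chaperonin subunit CCT2 had the lowest log2 fold change of the list, -0.12, and was called lower with the offset only.

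Among other GTPases of the ARL branch, ARL6, which recruits the BBSome coat to ciliary membranes, rose to 23.1 ± 0.998 CPM in shTRIM21, against 16.8 ± 1.74 CPM in shControl (SD, n = 3 each). Its log2 fold change was 0.45 (SE 0.12, adjusted p = 0.0246 by edgeR's quasi-likelihood test), lost in each of the 5 fits without a replicate 1, a replicate 2 or shTRIM21 replicate 3, with adjusted p from 0.0501 to 0.104. Of the 19 listed 13 were tested, 1 rose and 0 fell, and the median of the list was -0.10. In the ARF and SAR1 list 1 of 9 rose and 1 fell, with a median of 0.12, where 4.43% of all tested genes rose and 4.66% fell. SAR1A and SAR1B, GTPases of the COPII coat that buds from the endoplasmic reticulum, went opposite ways. SAR1A averaged 204 ± 12.4 CPM in shTRIM21 and 169 ± 17.2 CPM in shControl (log2 fold change 0.27, adjusted p = 0.0309 by edgeR's test), and SAR1B 85.5 ± 6.69 CPM in shTRIM21 and 109 ± 1.91 CPM in shControl (-0.35, adjusted p = 0.00452; SD, n = 3 each). The SAR1A call was lost with library totals in place of TMM (adjusted p = 0.0924) and without shTRIM21 replicate 2 (0.164) or 3 (0.102) or shControl replicate 1 (0.132) or 2 (0.139).

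Among relatives of the effectors and regulators, CFAP36, a relative of ARL2BP, averaged 35.7 ± 3.11 CPM in shTRIM21 and 31.8 ± 3.01 CPM in shControl (SD, n = 3 each), with a log2 fold change of 0.17. UNC119B, the paralogue of UNC119, averaged 76.9 ± 4.03 CPM in shTRIM21 and 82.0 ± 3.16 CPM in shControl (SD, n = 3 each), with a log2 fold change of -0.09. With ELMOD3, ELMO2 and ELMO3 these made 5 tested genes of 7 listed, of which 0 passed edgeR's test, and DESeq2 and limma-voom called 0. An unadjusted p under 0.05 was found for ELMO2, which was higher in shTRIM21, and ELMO3, which was lower, against 22.8% of all tested genes, and ELMO3 was called without shControl replicate 3.

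Among the clients of UNC119 and PDE6D reported here, 12 of 13 listed were tested and 0 passed edgeR's test, and DESeq2 and limma-voom called 0. An unadjusted p under 0.05 was found for 2 of the 12, against 22.8% of all tested genes, and the fit without shControl replicate 3 called 1, RHEB, a farnesylated GTPase named here after its values were seen. Their median log2 fold change was 0.01. HRAS and NRAS, farnesylated GTPases of the RAS family, had log2 fold changes of -0.07 and -0.08, and INPP5E, a ciliary lipid phosphatase carried by PDE6D, of 0.14. Among 7 mitochondrial and nuclear partners SLC25A6, an ADP/ATP carrier of the inner mitochondrial membrane, rose to 261 ± 13.3 CPM in shTRIM21, against 208 ± 18.2 CPM in shControl (log2 fold change 0.33, adjusted p = 0.00626 by edgeR's test). It was called in all 17 alternatives, and its log2 fold change was 0.15 with the offset by length and GC content. In that list 1 of 7 rose, 0 fell and 6 did not pass, where 4.43% of all tested genes rose and 4.66% fell. SLC25A4, the carrier known to bind ARL2BP, had a log2 fold change of 0.15 (95% interval from -0.06 to 0.36), and STAT3, a transcription factor that ARL2BP is known to bind, of 0.02 (95% interval from -0.14 to 0.18).

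**Figure D4:**
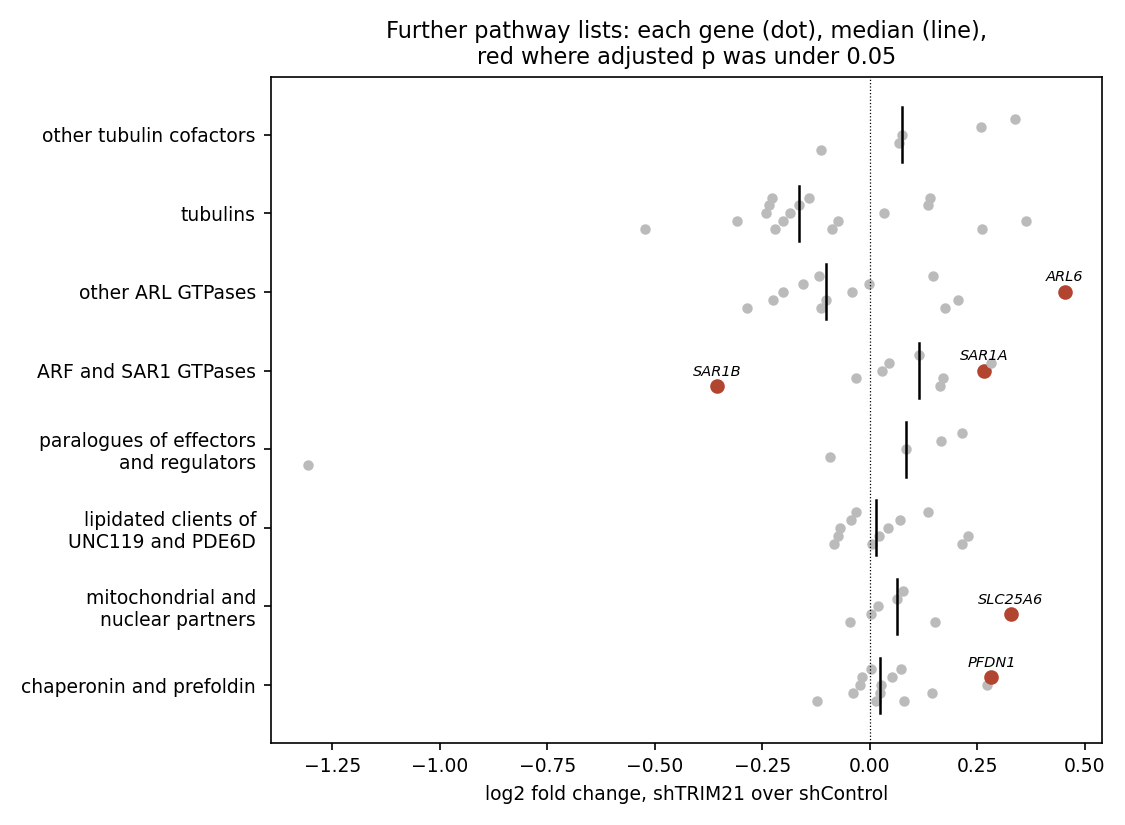
Log2 fold change of shTRIM21 over shControl (horizontal axis) for each tested gene of 8 further lists (rows), with the list's median as a black line and genes past an adjusted p of 0.05 in red. ARL6, SAR1A, SLC25A6 and PFDN1 lay to the right and SAR1B to the left, while the medians lay between -0.16 and 0.12.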

How the data were processed

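Each library came with a deposited table of raw counts, whole numbers by gene symbol and not normalized. The build hg38 and the tools limma 3.52.2, TopHat2 2.1.1 and edgeR 3.38.1 are named, per the submitters' processing notes. Not given in the sources used here are the counting tool, its annotation and strand setting, and how reads that match several places were treated, so genes that overlap could not be told apart. Library totals ran from 22656160 to 27123657 counts.

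Counts were tested here with edgeR 4.0.16 (R 4.3.3), using its default filter on low counts, TMM scaling and the quasi-likelihood test of shTRIM21 against shControl over all 14002 tested genes, with Benjamini-Hochberg adjustment and a threshold of 0.05. SE is the log2 fold change divided by the square root of F, and 95% intervals use the fit's degrees of freedom. CPM are edgeR's scaled counts on the TMM-adjusted library size. The method was tested on simulated data. Alternatives covered scaling, filters, DESeq2 1.42.0, limma-voom (limma 3.58.1), the 20 most abundant genes left out, libraries left out and a replicate block. An offset for GC content and length, which 94.2% of tested genes could be given, and sums of overlapping genes were added after the data were seen.

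A few genes of the further lists and markers are not reported here and were left out of their lists' counts. The members and the lists were chosen with earlier results of these data known. The rule for named genes took all members, TRIM21, every list member past the threshold with up to 3 others, overlapping and neighbouring genes, and the 5 genes most like ARL2BP. Positions, exons and UTRs come from GENCODE release 29 (GRCh38), and promoters, matched for 8 of 9 members, from RefSeq (GRCh38.p14).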

Additional observations from a re-analysis of the deposited data

How the results depend on the processing

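The number of genes past the threshold was 602 to 1737 with 1 library left out and 1936 with an offset that takes GC content and length into account, against 1272. The number of partner genes past it was 2, and 1 with upper-quartile scaling and 1 to 2 with 1 library left out, where ARL3 lost its call. Without replicate 3 of both groups it was again 2, then ELMOD2 and PDE6D. Members of the further lists past it numbered 5 of 82 tested, where 9.08% of all tested genes passed. The number was 3 with library totals in place of TMM, 12 with no filter on low counts, 11 with DESeq2 and 8 with limma-voom. It was 9 without the 20 most abundant genes, 13 without replicate 3 of both groups, 14 with the offset and 2 to 17 with 1 library left out. The number over all genes also moved, to 888 with library totals, 1609 with no filter, 1595 with DESeq2 and 1198 with limma-voom. It was 1370 without the 20 most abundant genes and 1459 without replicate 3 of both groups. TRIM21 was at -0.73, ran from -0.82 to -0.56 with 1 library left out, and was at -0.45 without replicate 3 of both groups. ARL2 had a log2 fold change of -0.0063 with the offset, and UNC119, -0.2348 to 0.0782 with 1 library left out, had 0.0162 without replicate 3 of both groups. The cause of these shifts was not tested. Beyond these, the alternatives left the direction of all 9 members and the side of the threshold of the 8 tested partner genes as reported, apart from ARL3 and PDE6D, whose values are given above.

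The labels do not say that libraries with the same number share a culture or day, so the numbers were not taken to pair the samples. Their deviations correlated at 0.096, -0.012 and 0.091 for replicates 1 to 3. Scores on the second principal component fell from replicate 1 to 3 in both groups. They were 22.9, 5.49 and -14.7 in shTRIM21 and 12.2, 5.87 and -31.8 in shControl, so whether the numbers pair the samples was not settled. With the replicate number as a block, 1699 genes, 2 partner genes and 13 members of the further lists passed, TBCA, PFDN2 and GNAI2 among them, and TRIM21 was at -0.72. With 3 libraries a group, the least abundant members, such as ARL2 and PDE6D, had the widest intervals.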

Other observations

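Of the annotated genes that overlap a member, B3GALNT2, which covers 418 exonic bases of TBCE on the opposite strand, had 0 counts in all 6 libraries. The counting tool and its annotation are not given, so absent RNA and reads left unassigned could not be told apart. ZNF750, which lies within TBCD on the opposite strand, had 8, 3 and 8 counts in shTRIM21 and 8, 15 and 10 counts in shControl. B3GNTL1, which shares 787 exonic bases with TBCD on the opposite strand, averaged 2.67 ± 0.501 CPM in shTRIM21 and 3.13 ± 0.551 CPM in shControl (SD, n = 3 each).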
